A study of Mus musculus with 30 samples.

Results

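Skin meets oxidants and free metal ions with a small set of inducible proteins. The antioxidant enzymes among them make glutathione, recycle thioredoxin, degrade heme and remove superoxide, and many of their genes are classic targets of the transcription factor NRF2. Metallothioneins are short, cysteine-rich proteins that bind zinc and copper and scavenge radicals. Mt1 and Mt2 are widely expressed and induced by metals, glucocorticoids and inflammation, whereas Mt4 is known from differentiating stratified squamous epithelium. Of these 2 groups, 10 genes were followed here in mouse back skin during and after irritation with the phorbol ester TPA: the NAD(P)H quinone reductase gene Nqo1, Gclm and Gclc (modifier and catalytic subunits of glutamate-cysteine ligase, the first enzyme of glutathione synthesis), Hmox1 (heme oxygenase 1), Txnrd1 (cytosolic thioredoxin reductase), Srxn1 (sulfiredoxin, which repairs overoxidized peroxiredoxins), Sod2 (mitochondrial manganese superoxide dismutase), and Mt1, Mt2 and Mt4. All their probe sets were taken by gene symbol, and the 10 genes were chosen with earlier results of these data known. They are 10 of 22121 gene symbols on the array, had 21 of its 45037 probe sets, and all 21 were among the 36029 that passed the filter on low intensity.

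Skin came from female 129–C57BL/6 mice of 8 to 12 weeks that were wild type (WT) or D6-deficient. D6 is a scavenging receptor for inflammatory CC chemokines. The shaved back received TPA at 50 µM in acetone 3 times, 24 h apart, and whole back skin was taken 1, 2, 4 or 6 days after the last application. Day 0 stands for mice of the same genotype that received acetone only, although their sample titles call them untreated. Each of the 10 groups held 3 mice, with 1 Affymetrix Mouse430_2 array each, which gives 30 arrays. There was 1 set of day 0 mice per genotype, so all changes from day 0 within a genotype share their controls. In whole skin, fewer cells of a type and less RNA per cell cannot be told apart.

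Values are RMA intensities on the log2 scale, where 1 unit is a 2-fold difference, and a probe set passed a comparison at a limma Benjamini-Hochberg adjusted p under 0.05 over all tested probe sets. Where a gene had several probe sets, the brightest over all arrays is quoted, and the main differences of the others are given. Levels are compared between groups and never between genes, because probe sets differ in brightness for the same amount of RNA. Where every array of a group lies above or below every array of another, this is a description and not a test. The share of all probe sets that separate in this way is not given.

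Facts of the whole series that touch these values are few. Of 3 probe sets for the D6 gene, which the array calls Ccbp2, 1422112_at was lower in D6-deficient skin by -1.41 (SE 0.11, adjusted p = 1.3e-08) and 1422111_at by -0.69 (SE 0.10, adjusted p = 5.2e-05), while 1437937_at differed by -0.07 (adjusted p = 0.8). The 3′ minus 5′ signal of Actb, a measure of RNA integrity, lay between 0.67 and 0.84 in WT day 0 arrays and between 0.89 and 1.14 in D6-deficient day 0 arrays, against 0.34 to 0.65 on all arrays after TPA. It therefore moves with TPA against day 0, and its part in the changes from day 0 was not tested. The day 0 skins also differed in activated keratinocyte markers (6 genes, such as Krt6a and Krt16), whose mean was 7.16 in WT (6.35 to 8.12 over the arrays) and 9.29 in D6-deficient skin (8.55 to 10.19).

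The promoters of the metallothionein genes are shown because the 3 genes are close neighbours on chromosome 8 and yet moved in opposite directions after TPA. In the RefSeq gene order, Mt4, Mt3, the noncoding gene Gm39227, Mt2 and Mt1 follow one another. The windows below are RefSeq sequence of build GRCm38.p6 on the plus strand, from 250 bases before to 30 bases after the transcript start that the table gives, with capitals for every match to the metal response element cores TGCACNC or TGCGCNC, the antioxidant response element core TGACNNNGC, or the AP-1 site TGACTCA, which is also known as the TPA response element, on either strand. For Mt1 that start is not the first base of the gene record.
Mt1 (chr8:94178839-94179118, +): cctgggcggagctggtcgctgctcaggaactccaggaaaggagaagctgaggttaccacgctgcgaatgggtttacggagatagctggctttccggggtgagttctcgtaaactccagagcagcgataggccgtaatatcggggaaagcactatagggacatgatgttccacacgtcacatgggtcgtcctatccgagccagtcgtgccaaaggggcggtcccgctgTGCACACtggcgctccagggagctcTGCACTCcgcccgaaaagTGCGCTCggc
Mt2 (chr8:94172368-94172647, +): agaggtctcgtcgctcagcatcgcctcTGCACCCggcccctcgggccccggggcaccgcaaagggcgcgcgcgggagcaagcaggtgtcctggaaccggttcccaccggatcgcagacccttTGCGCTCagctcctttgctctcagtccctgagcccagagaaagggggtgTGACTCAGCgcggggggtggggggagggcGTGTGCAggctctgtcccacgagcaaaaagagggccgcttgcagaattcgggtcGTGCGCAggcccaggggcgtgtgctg
Mt4 (chr8:94136954-94137233, +): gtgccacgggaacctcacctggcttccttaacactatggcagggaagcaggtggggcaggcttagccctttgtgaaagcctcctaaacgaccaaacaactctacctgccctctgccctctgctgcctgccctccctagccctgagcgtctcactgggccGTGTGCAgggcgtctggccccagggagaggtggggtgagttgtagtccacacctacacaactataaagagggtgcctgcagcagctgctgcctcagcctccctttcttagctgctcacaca

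The Mt1 window held 3 metal cores on the strand of the gene. Relative to the start used, TGCACAC began 23 bases before it, TGCACTC at base 3 and TGCGCTC at base 21. Because that start is not the first base of the Mt1 gene record, these positions do not place the cores inside or outside the usual transcript. The Mt1 window is thus not placed like those of Mt2 and Mt4, and its count is not comparable with theirs. The Mt2 window held 4 metal cores, at 223 and 128 bases before the start on the strand of the gene and at 50 bases before and base 5 after it on the opposite strand. It also held 1 AP-1 site, TGACTCA, 79 bases before the start, and this site overlaps an antioxidant core of the same window (TGACTCAGC). The Mt4 window held 1 match, a metal core on the opposite strand 91 bases before the start. Of all 32851 RefSeq windows of 300 bases, 25.7% held a metal core of either form, 5.2% the AP-1 site and 12.4% the antioxidant core, so single matches are frequent. Sequence was matched for 8 of the 10 genes, in 10 windows, of which 5 held a metal core, 4 an antioxidant core and 2 an AP-1 site. The Srxn1 window held 2 AP-1 sites, 1 antioxidant core and 1 metal core. The Gclm window held 3 metal cores and 1 antioxidant core, and the second of 3 Txnrd1 windows held 1 antioxidant core. The windows of Nqo1 and Sod2 held none of these letters. The NF-kappaB consensus, searched as GGG, any 2 bases and TTTCC, was present in 1.63% of all windows and in none of the 10. A match describes letters in a window and is no evidence of binding, and the lack of one says nothing of sequence outside it.

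Day 4 was the day on which most of the genes stood away from their acetone controls. In WT skin, 15 of the 21 probe sets were higher and 1 was lower at day 4, where 39.1% of all tested probe sets passed in either direction and 17.3% passed as higher. In D6-deficient skin, 14 were higher and 2 lower, against 41.1% of all probe sets in either direction and 18.8% higher. The median change of the 21 was 0.99 for WT and 1.19 for D6-deficient mice, and that of all tested probe sets was 0.01 in both. A change over 3-fold was seen for 4 of the 21 in WT (background 3.24%) and for 9 of the 21 in D6-deficient skin (background 4.01%). These are not counts of genes, since the 9 included several Sod2 sets and both Mt1 sets. Txnrd1 1424486_a_at, also among them, changed 3.45-fold there and 2.95-fold in WT. The difference between the genotypes in the day 4 change passed for none of the 21. By quoted probe set, Mt1, Mt2, Hmox1, Sod2, Txnrd1, Srxn1 and Gclm rose and Mt4 fell in WT skin. In D6-deficient skin the same genes passed except Srxn1, and Nqo1 fell in addition. Gclc did not pass in either genotype.

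**Figure D1:**
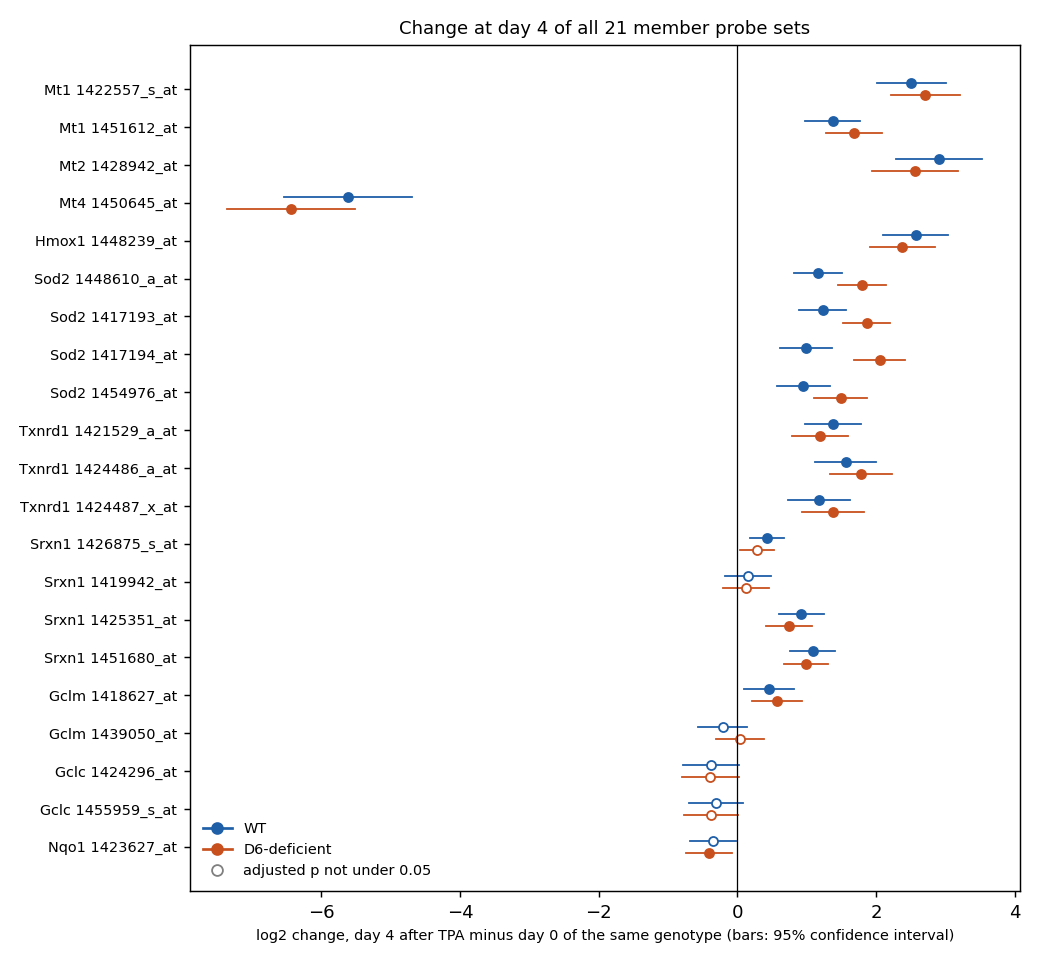
Change at day 4 from day 0 of the same genotype (x axis, log2) for all 21 probe sets (y axis), with 95% confidence intervals as bars, WT in blue and D6-deficient in orange; open circles did not pass. Mt4 stands alone, at -5.62 (WT) and -6.43 (D6-deficient), while Mt1, Mt2 and Hmox1 lie between 2.38 and 2.91 by quoted probe set.

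Other days showed fewer changes, and for most of them the count among the 21 was no larger than the background. In WT skin, day 1 gave 3 higher probe sets (background 24.0% in either direction), day 2 gave 6 higher and 1 lower (26.1%), and day 6 gave 3 higher (22.1%). In D6-deficient skin, day 1 gave 5 higher and 2 lower (36.3%), day 2 gave 6 higher and 3 lower (38.1%), and day 6 gave 3 higher and 2 lower (31.7%). Steps between days within a genotype do not use the acetone controls. Most of the passing steps lay between days 2 and 4 and between days 4 and 6. From day 2 to day 4, 13 probe sets rose and 1 fell in WT skin (background 14.5%), and 11 rose and 2 fell in D6-deficient skin (16.3%). From day 4 to day 6, 14 fell and 4 rose in WT (22.1%), and 14 fell and 3 rose in D6-deficient skin (31.4%). From day 1 to day 2, 1 fell in WT (1.20%), namely Mt4, and 2 rose and 1 fell in D6-deficient skin (10.4%), which were Nqo1, Hmox1 and Mt4. Hair follicle markers also differed between these days. Against day 0, 6 of 8 were higher at day 1 and 7 of 8 at day 6 in WT. In D6-deficient skin 7 of 8 and 8 of 8 were higher. At days 2 and 4 no more than 1 of 8 was higher in either genotype. The part of the hair follicle in these steps was not tested.

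Among the metallothioneins, Mt1 rose to a peak at day 4 in both genotypes. In WT skin the day 0 arrays read 11.49, 11.11 and 11.38 (probe set 1422557_s_at) and the day 4 arrays 14.09, 13.39 and 14.02. In D6-deficient skin they read 11.20, 11.26 and 11.37 at day 0 and 14.00, 14.06 and 13.91 at day 4. The 6 day 4 arrays were above all 24 others, the highest of which was 12.93. The rise from day 0 was 2.51 in WT (SE 0.24, 5.69-fold, adjusted p = 2e-08) and 2.71 in D6-deficient skin (SE 0.24, 6.55-fold, adjusted p = 3.8e-09). The suffix _s_at means that the probes can match more than 1 transcript, so a share of this signal could come from a related transcript. The other Mt1 probe set, 1451612_at, followed it over the 30 arrays (Pearson r = 0.93) and rose by 1.37 and 1.68.

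Mt1 was already higher at the earlier days, with group means of 11.83 and 12.01 in WT and 12.43 and 12.34 in D6-deficient skin at days 1 and 2. The day 1 difference from day 0 was 0.50 in WT (SE 0.24, adjusted p = 0.14, not passed) and 1.15 in D6-deficient skin (SE 0.24, adjusted p = 0.00063). The test of the difference between these changes gave 0.65 (SE 0.34, adjusted p = 0.55), so the genotypes were not shown to differ. At day 6 the level had come down, to 12.07 (WT) and 12.52 (D6-deficient), and still lay above day 0 by 0.75 (adjusted p = 0.027) and 1.24 (adjusted p = 0.00039). The WT call at day 6 was lost without replicate 2 or 3 of day 0 or of day 6 (0.57 to 0.77, adjusted p = 0.051 to 0.17), and so was that at day 2 (0.68, adjusted p = 0.039) without replicate 2 or 3 of day 0 or of day 2 (0.46 to 0.72, adjusted p = 0.061 to 0.23). The WT day 1 difference passed without replicate 2 of day 1 (0.73, adjusted p = 0.042). By contrast, the probe set 1451612_at did not pass at days 1, 2 and 6 in either genotype. Its differences from day 0 were 0.03, 0.33 and 0.17 in WT and 0.18, 0.29 and 0.19 in D6-deficient skin (adjusted p = 0.23 to 0.94).

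Mt2 was the gene whose quoted probe set passed on all 4 days in both genotypes. The WT day 0 arrays read 11.15, 10.26 and 10.49 (probe set 1428942_at), and those of day 4 read 13.67, 13.27 and 13.70. The D6-deficient day 0 arrays read 10.98, 11.16 and 11.47, and those of day 4 read 13.65, 13.84 and 13.80. As for Mt1, the 6 day 4 arrays were above the 24 others. The day 4 rise was 2.91 in WT (SE 0.30, 7.53-fold, adjusted p = 6.1e-08) and 2.56 in D6-deficient skin (SE 0.30, 5.89-fold, adjusted p = 2.9e-07). In WT skin Mt2 was higher by 1.10 on day 1 (adjusted p = 0.0091), 1.28 on day 2 (adjusted p = 0.0025) and 1.48 on day 6 (adjusted p = 0.001), and in D6-deficient skin by 1.28, 1.11 and 1.27 (adjusted p = 0.0018, 0.0048 and 0.0022). The day 1 arrays of WT, 12.16, 11.04 and 12.00, overlapped those of day 0, and the call was lost without replicate 1 of day 1 (0.88, adjusted p = 0.066) or replicate 2 of day 0 (0.91, adjusted p = 0.053).

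Mt4 went the other way, and further. Its arrays read 9.90, 10.26 and 10.002 at day 0 in WT skin (probe set 1450645_at), 10.45, 9.06 and 9.995 at day 1, and 5.78, 7.37 and 7.61 at day 2. They then read 4.42, 4.75 and 4.13 at day 4 and 10.54, 10.66 and 10.48 at day 6. The level at day 1 overlapped day 0, was lower on every array of days 2 and 4, and was above every day 0 array again at day 6. The D6-deficient arrays took the same course, with 10.54, 10.70 and 10.27 at day 0, then 10.54, 10.30 and 10.06 at day 1, and 6.59, 8.81 and 7.64 at day 2. At day 4 they read 4.35, 4.09 and 3.77, and at day 6 11.32, 12.10 and 10.72. The spread was widest at day 2, with an SD of 1.00 in WT and 1.11 in D6-deficient skin.

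The fall of Mt4 against day 0 was -3.14 at day 2 in WT (SE 0.45, 8.79-fold lower, adjusted p = 1.5e-05) and -2.82 in D6-deficient skin (SE 0.45, 7.08-fold lower, adjusted p = 2.3e-05). At day 4 it was -5.62 in WT (49.1-fold lower, adjusted p = 1.2e-09) and -6.43 in D6-deficient skin (86.4-fold lower, adjusted p = 9.7e-11). The rise from day 4 to day 6 was 6.13 in WT (69.8-fold, adjusted p = 1.1e-09) and 7.31 in D6-deficient skin (158.6-fold, adjusted p = 3.3e-11). At day 4 the Mt4 signal was below the median of all probe sets on an array, which lay between 5.64 and 5.80, and no detection calls were used, so how much of that signal was background was not tested. At day 6 Mt4 exceeded day 0 by 0.51 in WT (adjusted p = 0.47) and 0.88 in D6-deficient skin (adjusted p = 0.14), and neither difference passed.

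Markers of the suprabasal epidermis, the layers in which Mt4 is known to be expressed, moved with it in part. Their mean (8 of 8 markers measured, such as Krt1, Krt10 and Lor) was 11.02 in WT at day 0 (10.92 to 11.20 over the arrays), 12.43 at day 2 (12.25 to 12.54) and 9.72 at day 4 (8.997 to 10.60). In D6-deficient skin it was 11.48 at day 0 (11.41 to 11.60), 11.62 at day 2 (11.47 to 11.83) and 8.37 at day 4 (7.34 to 8.95). At day 4, 5 of the 8 were lower and 1 higher in WT, and 7 were lower in D6-deficient skin. At day 2, when Mt4 had fallen, 5 of the 8 were higher in WT, and 1 was higher and 1 lower in D6-deficient skin. The part of these cells in the change of Mt4 was not tested.

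**Figure D2:**
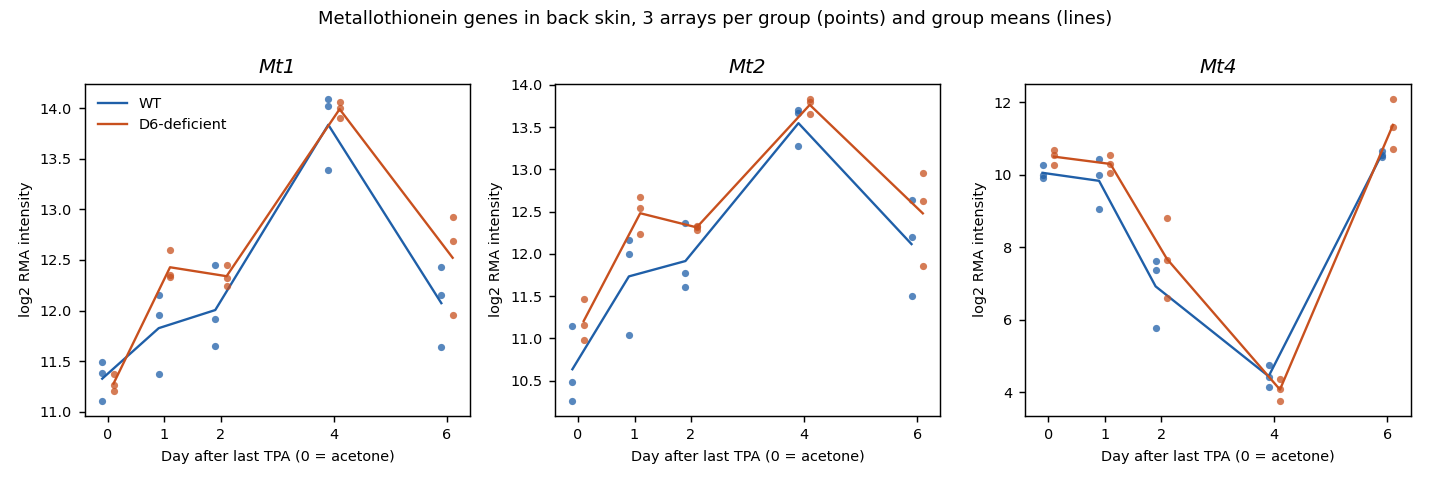
log2 RMA intensity (y axis, a separate scale per gene) against day after the last TPA application (x axis, 0 for acetone) for Mt1, Mt2 and Mt4, with 1 point per array and lines through the group means, WT in blue and D6-deficient in orange. Mt1 and Mt2 peak at day 4, where the Mt4 arrays lie between 3.77 and 4.75, below all of its other arrays.

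Hmox1, the heme-degrading enzyme that macrophages express strongly, was the antioxidant gene with the largest rise by quoted probe set. Its WT arrays read 8.80, 8.67 and 8.28 at day 0 (probe set 1448239_at), 9.22, 9.60 and 9.06 at day 2, and 10.70, 11.09 and 11.69 at day 4. Its D6-deficient arrays read 8.09, 8.49 and 8.14 at day 0, then 10.04, 9.74 and 9.61 at day 2, and 10.04, 10.82 and 10.99 at day 4. Every array of days 2 and 4 was above every day 0 array of its genotype. The change at day 2 was 0.71 in WT (SE 0.23, adjusted p = 0.022) and 1.56 in D6-deficient skin (SE 0.23, 2.95-fold, adjusted p = 8e-06). The WT value of day 2 was 0.56 (adjusted p = 0.12) without replicate 2 of that day and 0.56 (adjusted p = 0.12) without replicate 3 of day 0. At day 4 the change was 2.58 in WT (SE 0.23, 5.96-fold, adjusted p = 5.5e-09) and 2.38 in D6-deficient skin (SE 0.23, 5.20-fold, adjusted p = 1.2e-08). By day 6 the means were 8.85 and 8.68, and the difference from day 0 did not pass (0.27 and 0.44).

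By its quoted probe set, Sod2 passed against day 0 on day 4 and on no other day with all arrays in the fit. The WT arrays read 11.32, 11.23 and 11.36 at day 0 (probe set 1448610_a_at) and 12.61, 12.30 and 12.50 at day 4. The D6-deficient arrays read 11.05, 11.24 and 11.14 at day 0 and 12.88, 13.05 and 12.91 at day 4. The 6 day 4 arrays were above the other 24, of which the highest read 11.95. The rise was 1.17 in WT (SE 0.17, 2.25-fold, adjusted p = 6.7e-06) and 1.80 in D6-deficient skin (SE 0.17, 3.49-fold, adjusted p = 8.6e-09), and all 4 Sod2 probe sets passed in both genotypes. At day 2 the D6-deficient arrays read 11.95, 11.01 and 11.36, and the difference from day 0 was 0.51 (adjusted p = 0.02, passed) without replicate 2 of that day and 0.04 without replicate 1. The probe set 1417193_at also passed without replicate 2 (0.50, adjusted p = 0.029). The probe set 1454976_at was lower than day 0 in D6-deficient skin at days 1, 2 and 6, by -0.54, -0.47 and -0.49 (adjusted p = 0.025, 0.046 and 0.046), calls that 4, 5 and 6 of the 6 fits without 1 array did not keep (-0.54 to -0.30, adjusted p up to 0.26).

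Txnrd1 rose in WT skin from day 2. The WT arrays read 9.85, 9.70 and 10.002 at day 0 (probe set 1421529_a_at), 10.86, 10.50 and 10.53 at day 2, and 11.47, 10.79 and 11.43 at day 4. The changes were 0.78 at day 2 (SE 0.19, adjusted p = 0.0043) and 1.38 at day 4 (SE 0.19, 2.60-fold, adjusted p = 5.4e-06). In D6-deficient skin the arrays read 10.26, 10.32 and 10.23 at day 0, then 10.48, 9.61 and 9.65 at day 2, and 11.68, 11.51 and 11.20 at day 4. The day 2 difference was -0.35 (SE 0.19, adjusted p = 0.16), and -0.64 (adjusted p = 0.0075) without replicate 1 of that day, and the rise at day 4 was 1.19 (SE 0.19, 2.29-fold, adjusted p = 2.6e-05). The other 2 probe sets, 1424486_a_at and 1424487_x_at, rose at day 4 by 1.56 and 1.18 in WT and by 1.78 and 1.38 in D6-deficient skin. At day 2 they rose in WT by 0.91 and 0.75 (adjusted p = 0.0028 and 0.013, the latter 0.59 and 0.079 without replicate 1 of day 2). In D6-deficient skin 1424486_a_at also rose at day 2, from 6.68, 6.37 and 6.70 at day 0 to 7.68, 7.13 and 6.88, by 0.65 (SE 0.21, adjusted p = 0.019). That call was lost without replicate 1 of day 2 (0.43, adjusted p = 0.15) or replicate 2 of day 0 (0.54, adjusted p = 0.087). The direction of the day 2 change in D6-deficient skin thus depended on the probe set read. At day 6 the same probe set was higher in WT by 0.66 (adjusted p = 0.028), and not without replicate 1 of day 0 (0.56, adjusted p = 0.12) or replicate 2 of day 6 (0.48, adjusted p = 0.19). At day 1 both of them passed in both genotypes (0.77 and 0.65 in WT, 0.78 and 0.72 in D6-deficient skin), where the quoted probe set did not (0.48 and 0.04). In WT the calls were lost without replicate 1 of day 0 (0.66 and 0.62, adjusted p = 0.06 and 0.091) and, for 1424487_x_at, without any 1 array of the 6 (adjusted p of up to 0.12). In D6-deficient skin that of 1424487_x_at was lost without replicate 2 of day 0 (0.59, adjusted p = 0.069). The suffix _x_at marks probes that may also bind unrelated transcripts.

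The glutathione and sulfiredoxin genes moved less. For Srxn1, the WT arrays read 7.76, 7.68 and 7.85 at day 0 (probe set 1426875_s_at) and 8.21, 8.04 and 8.34 at day 4, a rise of 0.43 (SE 0.12, adjusted p = 0.005), while the D6-deficient difference was 0.28 (SE 0.12, adjusted p = 0.06). Its probe sets 1451680_at and 1425351_at rose more, by 1.09 and 0.92 in WT and by 1.00 and 0.74 in D6-deficient skin, and both were also higher at day 2 in D6-deficient skin (0.76 and 0.60). At day 1 1425351_at was higher there by 0.48 (adjusted p = 0.02), a call lost without replicate 1 or 2 of day 1 or replicate 2 or 3 of day 0 (0.40 to 0.46, adjusted p = 0.059 to 0.096). The fourth, 1419942_at, differed by 0.15 and 0.13 and did not pass. Over the 30 arrays these 3 correlated with the quoted set at Pearson r = 0.76, 0.71 and 0.37. Hence the size of the Srxn1 change depends on the probe set read.

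Gclm rose by 0.46 in WT at day 4 (SE 0.17, adjusted p = 0.038), where the arrays read 9.11, 9.05 and 8.79 at day 0 and 9.55, 9.39 and 9.40 at day 4 (probe set 1418627_at). In D6-deficient skin it rose by 0.57 (SE 0.17, adjusted p = 0.011). The WT call was lost in 5 of the 6 fits that left out 1 array of either group, with values from 0.37 to 0.50 (adjusted p = 0.056 to 0.15), and not without replicate 1 of day 0 (0.53), and the other Gclm probe set, 1439050_at, differed by -0.21 and 0.04 and correlated with the quoted one at r = 0.23.

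Gclc, the catalytic partner, passed as higher than day 0 on no day by its quoted probe set (1424296_at) with all arrays in the fit. Its day 4 differences were -0.38 in WT (adjusted p = 0.14) and -0.39 in D6-deficient skin (adjusted p = 0.12), with every day 4 array below every day 0 array of its genotype. The day 2 fall of Gclc passed in D6-deficient skin, at -0.56 (SE 0.20, adjusted p = 0.029), and was lost without replicate 1 or 2 of that day or replicate 2 or 3 of day 0 (-0.54 to -0.46, adjusted p = 0.071 to 0.11). From day 4 to day 6 Gclc rose by 0.57 in WT (adjusted p = 0.039) and by 0.71 in D6-deficient skin (adjusted p = 0.0081). In the latter, the replicate 2 array of day 6 read 9.63 against 8.64 and 8.48, and without it the difference from day 0 was -0.04 in place of 0.32, whereas without replicate 3 of day 6 it was 0.54 and passed (adjusted p = 0.042). The replicate 2 array was also the highest of its group for Gclm (9.94 against 8.94 and 9.19). The other Gclc probe set, 1455959_s_at, rose at day 6 in D6-deficient skin by 0.58 over day 0 (SE 0.19, adjusted p = 0.021), with arrays of 8.78, 9.59 and 8.37 against 8.36, 8.34 and 8.29. This call was lost without replicate 2 of day 6 (0.25, adjusted p = 0.25) or replicate 3 of day 0 (0.56, adjusted p = 0.06). From day 4 to day 6 that probe set rose by 0.76 in WT (adjusted p = 0.0049) and 0.97 in D6-deficient skin (adjusted p = 0.00037). Hair follicle markers (8 of 8 measured, such as Krt25 and Krt71) changed over the same step, from a mean of 5.50 (5.36 to 5.66 over the arrays) to 10.24 (9.36 to 10.67) in WT and from 5.70 (5.60 to 5.83) to 10.90 (9.65 to 12.15) in D6-deficient skin. These markers were also high at day 1 (means 9.35 and 10.22, against 5.60 and 5.69 for day 0), when Gclc differed from day 0 by 0.02 in WT and -0.23 in the D6-deficient group and did not pass. Their part in the Gclc and Mt4 values of day 6 was not tested.

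Nqo1, often used as a readout of NRF2 activity, did not rise above day 0 in either genotype. The WT arrays read 6.96, 6.85 and 7.59 at day 0 (probe set 1423627_at) and 6.85, 6.93 and 6.56 at day 4, a difference of -0.35 (SE 0.16, adjusted p = 0.085). The D6-deficient arrays read 7.13, 7.08 and 7.55 at day 0, then 6.59, 6.64 and 6.81 at day 1, and 7.27, 7.62 and 7.51 at day 2. The D6-deficient level was lower at day 1 by -0.57 (adjusted p = 0.0069), at day 4 by -0.41 (adjusted p = 0.045) and at day 6 by -0.48 (adjusted p = 0.026), and not at day 2 (0.21, adjusted p = 0.33). Replicate 3 was the highest of both day 0 groups, and without it in D6-deficient skin the 3 differences were -0.43, -0.26 and -0.33, and none of them passed (adjusted p = 0.062, 0.25 and 0.17). The day 4 call was also lost without replicate 1 or 2 of day 4 (-0.42 and -0.31, adjusted p = 0.075 and 0.19), and that of day 6 without replicate 1 of day 6 (-0.41, adjusted p = 0.097). In WT skin, the differences of days 1 and 4 passed without replicate 2 of day 0 (-0.54 and -0.50, adjusted p = 0.028 and 0.027). The step from day 1 to day 2 in D6-deficient skin, which does not use day 0, was a rise of 0.78 (SE 0.16, adjusted p = 0.0022), followed by a fall of -0.62 to day 4 (adjusted p = 0.0089).

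**Figure D3:**
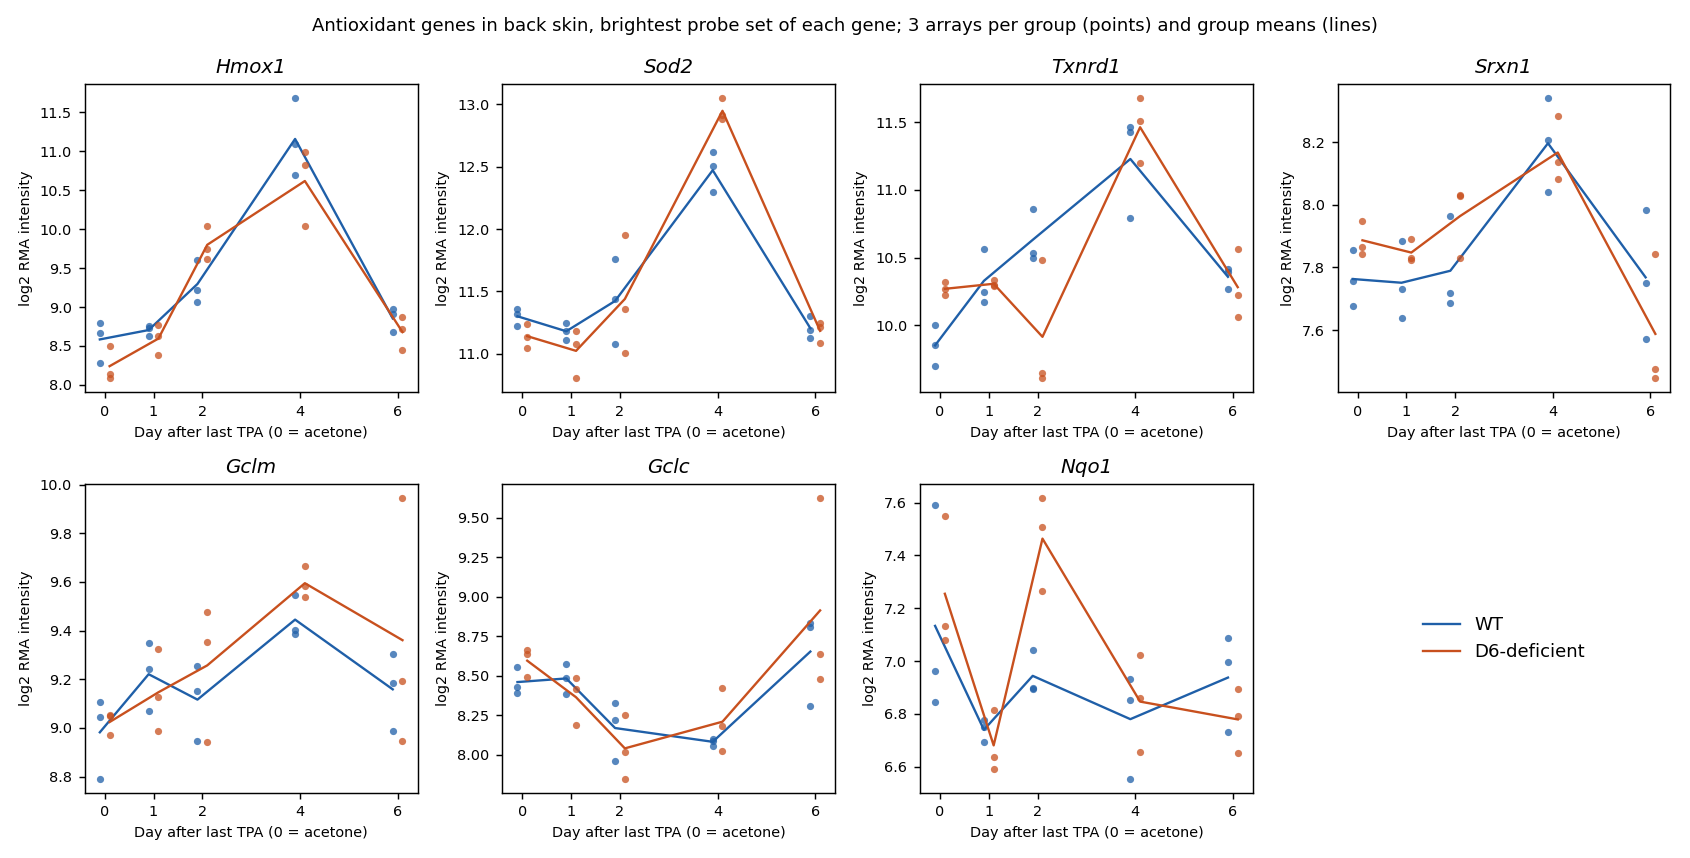
log2 RMA intensity (y axis, a separate scale per gene) against day after the last TPA application (x axis, 0 for acetone) for the 7 antioxidant genes, brightest probe set, with 1 point per array and lines through the group means, WT in blue and D6-deficient in orange. Hmox1, Sod2 and Txnrd1 peak at day 4, and Nqo1 is highest in D6-deficient skin at day 2.

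Ordering the 10 group means of each gene showed where neighbouring levels differed beyond the spread between arrays. For Mt1 the single break lay between the day 4 groups and the rest, with WT day 4 above D6-deficient day 6 by 1.31 (adjusted p = 2e-04, where 30.2% of all probe sets differed between these groups). For Mt2 it lay between WT day 4 and D6-deficient day 1 (1.07, adjusted p = 0.01, background 24.9%), and for Sod2 between WT day 4 and D6-deficient day 2 (1.03, adjusted p = 0.00015, background 12.4%). The order of Mt4 had 2 breaks, WT day 1 above D6-deficient day 2 by 2.15 (adjusted p = 0.002, background 10.5%) and WT day 2 above WT day 4 by 2.48 (adjusted p = 0.00035, background as above). For Hmox1, D6-deficient day 4 stood above D6-deficient day 2 (0.82, adjusted p = 0.014), and for Txnrd1, WT day 4 stood above WT day 2 (0.60, adjusted p = 0.04). No neighbours differed for Nqo1, Gclm, Gclc and Srxn1. Neighbours in such an order are the closest pairs of groups, so this does not mean that the levels were flat. Srxn1, for example, changed from day 4 to day 6 by -0.43 in WT (adjusted p = 0.01, background 22.1%). In D6-deficient skin it changed by -0.58 (adjusted p = 0.00053, background 31.4%). The 2 genotypes were not shown to differ at day 4 by the quoted probe set of any of the 10 genes. D6-deficient skin differed from WT by 0.48 for Sod2 (95% confidence interval 0.13 to 0.82, adjusted p = 0.26), without passing. For Hmox1 the difference was -0.54 (-1.01 to -0.07, adjusted p = 0.39) and did not pass either.

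Differences between D6-deficient and WT skin on the same day were few among the 21 probe sets. None passed at day 0 (background 1.57%), day 1 (0.0555%) or day 6 (0.125%), where 1, 2 and 0 had an unadjusted p under 0.05 in limma. At day 2, 1 was lower (background 4.45%), and at day 4, 1 was higher (0.513%), and in both cases 6 had an unadjusted p under 0.05. Every Sod2 probe set was among the 6 of day 4, so these were not 6 genes. The background shares belong to the adjusted threshold, and none is given for the unadjusted counts here and below. Those counts therefore cannot be read as an excess over all probe sets. The changes from day 0 differed between the genotypes for 0 probe sets at day 1 (background 0.0194%), 1 at day 2 (5.40%), 0 at day 4 (0.608%) and 0 at day 6 (0.0250%), with 0, 2, 4 and 0 at an unadjusted p under 0.05. The difference averaged over the 5 days passed for 1 probe set (background 5.52%), with 4 at an unadjusted p under 0.05.

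The probe set that passed at day 2 was the quoted one of Txnrd1. It was lower in D6-deficient skin by -0.72 (SE 0.19, adjusted p = 0.032), with all 3 arrays below the lowest WT array. This call was lost without WT replicate 1 or 3 (-0.60 and -0.77, adjusted p = 0.16 and 0.063) and without D6-deficient replicate 2 or 3 (-0.56 and -0.58, adjusted p = 0.22 and 0.17). The change from day 0 differed by -1.13 (SE 0.28, adjusted p = 0.014), and part of this came from day 0, where D6-deficient arrays were higher by 0.42 (SE 0.19, adjusted p = 0.33). The difference of changes was -1.02 (adjusted p = 0.053) without WT replicate 1 of day 2 and -0.98 (adjusted p = 0.058) without D6-deficient replicate 2 of day 2. The other Txnrd1 probe sets gave -0.26 (adjusted p = 0.76) and -0.29 (adjusted p = 0.73), so the difference was found with 1 of the 3.

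At day 2 Nqo1 and Hmox1 were higher in D6-deficient skin on every array, by 0.52 (SE 0.16, adjusted p = 0.068) and 0.50 (SE 0.23, adjusted p = 0.27), without passing. Without D6-deficient replicate 1, Nqo1 passed (0.62, adjusted p = 0.048). For Hmox1 the difference of changes was 0.85 (95% confidence interval 0.19 to 1.51, adjusted p = 0.14). On that day neutrophil markers were higher in D6-deficient skin (6 of 7 measured, such as Ngp and Camp, with a median difference of 3.13; Ly6g and Retnlg were not on the array by these names). Their mean ran from 7.74 to 9.52 over the D6-deficient arrays and from 5.79 to 6.68 over the WT arrays. Of 9 macrophage and monocyte markers 5 were higher, with means of 10.95 to 11.16 against 10.06 to 10.38. At day 4 neutrophil markers were above day 0 in both genotypes (5 of 7 in WT, 6 of 7 in D6-deficient skin), and their means ran from 7.39 to 8.45 in WT and from 8.07 to 9.05 in D6-deficient skin. Of the 9 macrophage and monocyte markers, 6 were higher and 3 lower at day 4 than at day 0 in both genotypes (median changes 1.23 and 1.49). Their mean went from 10.20 (10.002 to 10.31) at day 0 to 10.85 (10.76 to 10.97) in WT, and from 9.76 (9.60 to 9.92) to 10.64 (10.54 to 10.70) in D6-deficient skin. The part of these cells in the Hmox1, Nqo1 and Sod2 values was not tested.

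At day 4 the passing probe set was 1417194_at of Sod2, whose arrays read 6.51, 6.06 and 6.26 in WT and 6.80, 7.48 and 6.87 in D6-deficient skin, a difference of 0.77 (SE 0.18, adjusted p = 0.047). It was lost without WT replicate 2 or 3 (0.66 and 0.77, adjusted p = 0.24 and 0.11) or D6-deficient replicate 2 (0.56, adjusted p = 0.23). All 4 Sod2 probe sets had every D6-deficient array above every WT array, but they read 1 gene on the same arrays and are not independent. This separation is a description, and the share of all probe sets that separate so is not given. The other 3 differed by 0.44 to 0.62 with adjusted p = 0.15 to 0.30. The change from day 0 differed by 1.06 for 1417194_at (adjusted p = 0.05, just short of passing, and 0.045 and 0.039 without D6-deficient replicate 1 or 3 of day 4) and by 0.63 for the quoted set (95% confidence interval 0.14 to 1.13, adjusted p = 0.27). For the metallothioneins at day 4 the difference of changes was 0.20 for Mt1 (95% confidence interval -0.50 to 0.90), -0.35 for Mt2 (-1.23 to 0.52) and -0.81 for Mt4 (-2.12 to 0.49), and these intervals leave room for differences of over 1.5-fold. Averaged over the 5 days, Mt2 was higher in D6-deficient skin by 0.46 (SE 0.13, 1.38-fold, adjusted p = 0.043), and Mt1 by 0.30 (SE 0.11, adjusted p = 0.11). The Mt2 call was lost in 21 of the 30 fits that left out 1 array, where the values ran from 0.39 to 0.47 with an adjusted p of up to 0.08. Both Mt1 probe sets passed without D6-deficient replicate 3 of day 6 (0.36 and 0.29, adjusted p = 0.024 and 0.022).

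**Figure D4:**
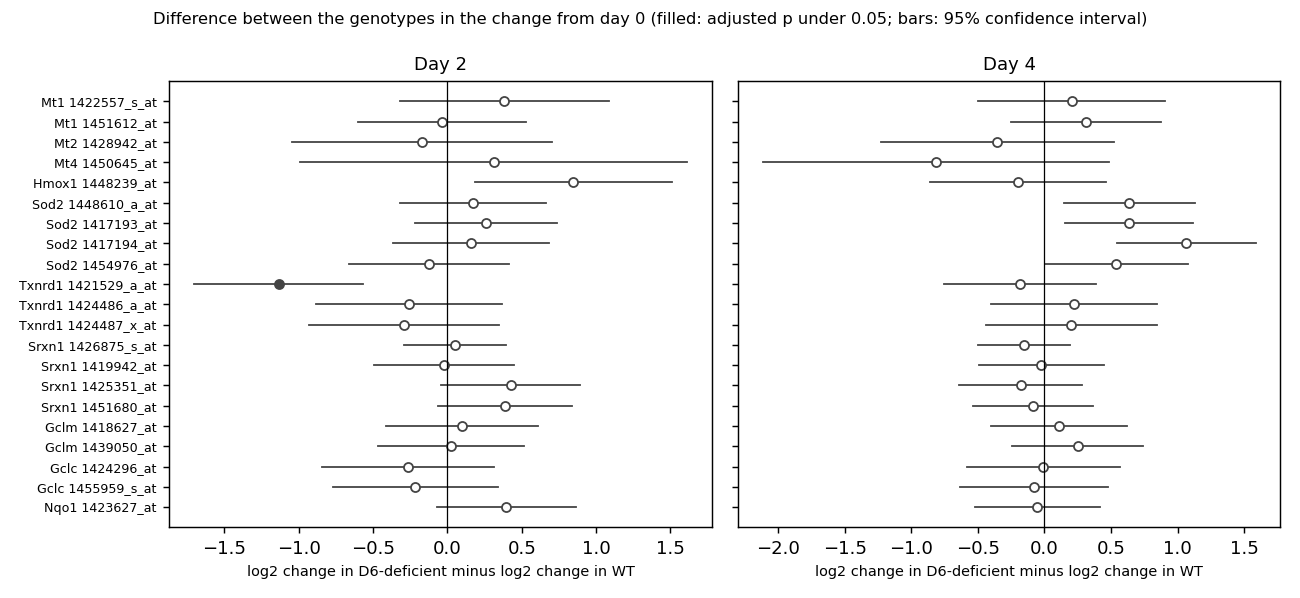
Change from day 0 in D6-deficient skin minus that in WT skin (x axis, log2) at day 2 (left) and day 4 (right) for the 21 probe sets (y axis), with 95% confidence intervals as bars and filled circles for those that passed. The quoted Txnrd1 set at day 2 (-1.13) is the 1 filled circle, and the largest day 4 estimate is Sod2 1417194_at (1.06).

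Other genes of the same pathways did not move as a block. Of 60 further antioxidant and NRF2 pathway genes, 57 were tested, and at day 4 18 were higher and 21 lower in WT skin and 23 higher and 14 lower in D6-deficient skin (medians -0.01 and 0.09, against 0.01 over all probe sets). Those that rose at day 4 in WT included Gsta4, a glutathione transferase for lipid aldehydes (3.21), Slc7a11, the cystine importer that feeds glutathione synthesis (3.10), and Gsr, glutathione reductase (2.26). Those that fell included Gsta3 (-3.95), Gsta2 (-3.19) and Aldh3a1, an aldehyde dehydrogenase (-3.66). In D6-deficient skin the largest changes were Aldh3a1 (-4.31), Slc7a11 (3.51), Gsta2 (-3.21), Gsta4 (2.98), Akr1b8 (2.19) and Ephx1 (-1.96), with adjusted p from 8.1e-11 to 1e-06. Of all probe sets, 39.1% (WT) and 41.1% (D6-deficient) passed at day 4. At day 2 the counts were 13 higher and 18 lower in WT (background 26.1%) and 19 higher and 13 lower in D6-deficient skin (38.1%). Between the genotypes at day 2, 6 of the 57 were higher in D6-deficient skin and 4 lower (background 4.45%), among them Gsto1, a glutathione transferase of the omega class (1.26, adjusted p = 0.00017), and Aldh3a1 (-2.05, adjusted p = 0.0042).

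Of 28 further genes of metal handling, 25 were tested, and at day 4 14 were higher and 1 lower in WT and 15 higher and 2 lower in D6-deficient skin (medians 0.54 and 0.44), where 17.3% and 18.8% of all probe sets passed as higher. The largest rises in WT were those of the siderophore-binding lipocalin Lcn2 (6.24), the zinc-binding calprotectin subunits S100a9 (5.54) and S100a8 (5.30), the zinc importers Slc39a2 (2.92) and Slc39a14 (2.77), and the metalloreductase Steap4 (1.65). In D6-deficient skin they were Lcn2 (5.04), S100a9 (3.59), Slc39a14 (3.07), S100a8 (2.98), Steap4 (1.99) and the ferroxidase ceruloplasmin, Cp (1.90). At day 0, D6-deficient skin had more S100a8 signal than WT skin (2.41, adjusted p = 0.035), with group means of 11.45 and 9.04, and at day 4 the means were 14.43 and 14.34. Slc39a2 had a smaller change at day 2 in D6-deficient than in WT skin, by -2.27 (adjusted p = 0.0036).

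The genes whose levels ran most like those of the 10 over the 30 arrays are given as a description, since the arrays share days and genotypes. Mt1 and Mt2 were each other's closest match (Pearson r = 0.96). Mt1 was followed by Ipo11 and Ier5l (both 0.93), and Mt2 by Snrpa1 (0.95) and Rnf149 (0.93). For Mt4 they were Fgfr2, Ttc3 and Col16a1 (all 0.95). For Hmox1 they were Alox5ap (0.96), Tmem173 (0.96) and Ms4a6d (0.95), for Sod2 Il1r1, Rnd1 (both 0.95) and Rdh10 (0.94), and for Txnrd1 Ccl22 (0.88), the zinc importer Slc39a14 (0.87) and Rdh10 (0.87). The remaining genes had lower maxima, with Plxna2 (0.87), Notch1 (0.87) and Krtap3-3 (0.86) for Gclc, Fam111a (0.86), Trpm2 and Zdhhc18 (both 0.85) for Srxn1, Appbp2 (0.84), Mbd2 (0.81) and Runx1 (0.79) for Gclm, and Rapsn (0.81), Pnpla7 and Xylt2 (both 0.72) for Nqo1. Among the 10 genes themselves, Mt4 ran opposite to Hmox1 (r = -0.91) and Sod2 (r = -0.89), and Hmox1 and Sod2 ran together (r = 0.86).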

How the data were processed

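The series has 30 arrays in 10 groups of 3, grouped by the genotype and day in the labels, which number biological replicates, and the study's methods give 1 mouse per array. The authors normalized the arrays by RMA in GeneSpring GX and deposited linear intensity values, not base-line-transformed. A second deposited file held no expression values and was not used. Depth has no meaning for arrays, and 3 arrays per group limit the precision. The intensities were put on the log2 scale here, 64 control probe sets and the lowest 20% by mean (9008) were left out, and 36029 were fitted with limma 3.58.1 in R 4.3.3, 1 mean per group over all arrays, with Benjamini-Hochberg adjustment per contrast. The fit was tested on simulated data. The study's methods removed the lowest 20% and used an unpaired t-test with a 3-fold threshold, which were run as alternatives together with other filters, median centring, single-contrast fits, a replicate block, a spike control covariate, averaged probe sets and leaving out each array. The quoted probe set of a gene was its brightest over all arrays. All probe sets of the 10 genes were reported, and at most 6 genes per pathway list, those with the largest passing change, and 3 genes of highest correlation per gene were named. The members, pathway lists and marker lists were chosen with earlier results of these data known. Figures were drawn with matplotlib 3.10.9 in Python 3.11.15. Promoter windows came from RefSeq; Hmox1 and Gclc had none in the table used, and no protein sequences were used.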

Additional observations from a re-analysis of the deposited data

Results flagged for a closer look

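The change of Txnrd1 from day 0 to day 2 (probe set 1421529_a_at) differed between the genotypes by -1.13 on the log2 scale in a test of the difference itself (limma, adjusted p = 0.014): WT skin showed 0.78 and D6-deficient skin -0.35. All 3 D6-deficient arrays of day 2 lay below the lowest WT array, while the other 2 probe sets of the gene did not pass this test. The probe set 1424486_a_at rose at day 2 in D6-deficient skin too (0.65, adjusted p = 0.019), so the sign of the D6-deficient change depended on the probe set. The mean of the 3 probe sets gave -0.56 (adjusted p = 0.23).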

How the results depend on the processing

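No difference by quoted probe set that passed was reversed under the alternative fits or with averaged probe sets. With each single gene tested in 18 comparisons (180 values by quoted probe set), 178 kept their side of the threshold when the lowest 40% were left out, 179 with no filter on low values, 177 with median centring of each array, 173 when the fit held only the arrays of the contrast, 178 with the spike control set as a covariate and 169 with the mean of a gene's probe sets; the methods' t-test with Benjamini-Hochberg adjustment, not run for the mean of days, kept 152 of 170. Labelled replicate numbers did not pair the arrays in any of 13 comparisons checked, and with the replicate block 178 of 180 kept their side, the mean-of-days difference of Mt2 being lost (0.46, adjusted p = 0.055) and the WT day 6 difference of Txnrd1 passing (0.51). With the block, member probe sets passing were 0 in place of 1 for D6-deficient against WT at day 4 and 0 in place of 1 for the mean of days. With the methods' t-test after adjustment, passing probe sets were 1 at WT day 1 and 0 at WT day 2, WT day 6, D6-deficient day 6, the genotype comparisons of days 2 and 4 and the day 2 difference of changes. With a 3-fold threshold added, and with the methods' t-test at the methods' threshold, they were 0 at WT days 1 and 6, 1 at WT day 2, 4 at WT day 4, 0 at D6-deficient days 1 and 6, 1 at D6-deficient day 2, 9 at D6-deficient day 4, and 0 for the genotype comparisons of days 2 and 4, the day 2 difference of changes and, for the first threshold, the mean of days. WT day 6 gave 5 with median centring and 5 in the fit to its own arrays; D6-deficient day 6 gave 3 in that fit and 3 with the spike covariate. D6-deficient against WT gave 0 at days 2 and 4 in the fit to those arrays, and 0 at day 4 with no filter and with the spike covariate, whereas the day 4 difference of changes gave 1 with the 40% filter, with median centring and with the spike covariate (Sod2 1417194_at). With averaged probe sets, genes passing were 2 at WT day 1 and 0 for D6-deficient against WT and for the difference of changes at day 2. Neighbouring groups that differed numbered 2 by the other Gclm set, 1 by the other Gclc set, 3 and 0 by the other Txnrd1 sets, 1 and 2 by Srxn1 1451680_at and 1425351_at, and 2 and 2 by Sod2 1454976_at and 1417194_at. For Gclm 1439050_at, Txnrd1 1424486_a_at and Srxn1 1425351_at, 1 of these pairs each ran in the direction opposite to the quoted set. The causes were not tested.

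Leaving out 1 array at a time, the probe sets passing ran from 1 to 3 at WT day 1, 5 to 7 at day 2, 15 to 16 at day 4 and 1 to 3 at day 6, and from 4 to 6, 6 to 9, 15 to 16 and 2 to 6 on the same days in D6-deficient skin. They ran from 0 to 2 for D6-deficient against WT at day 2, 0 to 1 at day 4 and 0 to 0 on days 0, 1 and 6, from 0 to 1 for the difference of changes at days 2 and 4 and 0 to 0 at days 1 and 6, and from 0 to 3 for the mean of days.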
